A study of Mus musculus with 4 samples.

Results

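The LRRC8 genes encode the subunits of the volume-regulated anion channel, and the mouse has 5 of them, Lrrc8a, Lrrc8b, Lrrc8c, Lrrc8d and Lrrc8e. All 5 were found, by Ensembl gene ID, among the 52550 gene entries counted, and 4 of them were among the 12730 genes that passed a filter on low counts. Lrrc8e did not pass it. The family was chosen by its measured values, the counts of its members in these 4 libraries, and so its levels and differences are given without p-values. The libraries hold polyadenylated RNA of macrophages grown from bone marrow of C57BL/6 mice aged 8 to 10 weeks. Each of the 4 groups is 1 library: miR-7 deficient macrophages given LPS, miR-7 deficient macrophages left unstimulated, wild-type macrophages given LPS, and wild-type macrophages left unstimulated. LPS, the outer-membrane lipid of Gram-negative bacteria that is sensed through the receptor TLR4, was given at 100 ng/mL for 12 hours. Neither the way in which miR-7 was made deficient nor the number of mice behind a library is given in the sources used here. With 1 library in each group, a difference between mice or cultures, or an exchange of material between libraries, cannot be told apart from an effect of genotype or LPS.

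The channel opens when a cell swells and lets out chloride and small organic osmolytes such as taurine. Water follows them and the cell's volume is restored. LRRC8A is the obligatory subunit: without it no channel reaches the plasma membrane. The other 4 proteins join it in mixed hexamers and set what the pore passes. LRRC8D favours larger and uncharged organic molecules, including taurine and some drugs. LRRC8C and LRRC8E have been described in channels that carry the cyclic dinucleotide cGAMP, the messenger of the DNA sensor cGAS, between cells. In macrophages, cell swelling and chloride efflux have been linked to the NLRP3 inflammasome.

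The labels name miR-7 as the microRNA of the deficiency, so the first sequences shown are its mature forms, which share their seed. They are 5′ to 3′ from RefSeq (GRCm38.p6), with the seed, bases 2 to 8, in capitals. Mir7-1 (chr13:58392841-58392863, minus strand) and Mir7-2 (chr7:78888295-78888317, plus strand) give miR-7a, and Mir7b (chr17:56243017-56243040, plus strand) gives miR-7b.
mmu-miR-7a-5p: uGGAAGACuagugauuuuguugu
mmu-miR-7b-5p: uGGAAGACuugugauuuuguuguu
The complement of this seed, GTCTTCC, occurs in the longest annotated 3′ UTR of 1610 of 11289 tested genes with one, or 14.26%. Among the 5 subunits, Lrrc8a has a match to this whole stretch and the others have none. In Lrrc8a it spans bases 837 to 843 of a UTR of 1667 bases, shown here with the match in capitals.
Lrrc8a 3′ UTR site: tgggccaggatGTCTTCCcaatatgtcct
The shorter stretch TCTTCC, which pairs with bases 2 to 7, occurs 3 times in the Lrrc8d UTR, 2 in Lrrc8c and 1 in Lrrc8a. It does not occur in Lrrc8b or Lrrc8e, and how many tested genes hold it was not counted. The UTRs searched were 3999 bases long in Lrrc8b, 4246 in Lrrc8c, 910 in Lrrc8d and 1306 in Lrrc8e. The median over the genes tested was 1187. Gene counts do not check the deficiency, since mature microRNAs have no poly(A) tail. Mir7-1 had 7 counts in deficient LPS, 7 in deficient unstimulated, 10 in wild-type LPS and 15 in wild-type unstimulated macrophages, and Mir7-2 and Mir7b had 0 counts in all 4 libraries.

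Lrrc8b, Lrrc8c and Lrrc8d lie one after another on the plus strand of chromosome 5, yet had 3 different patterns across the libraries, so the start of each is shown. Each stretch runs from 250 bases before to 50 bases after an annotated start (RefSeq, GRCm38.p6, plus strand), with matches to 7 motifs searched on both strands in capitals.
Lrrc8b promoter, chr5:105415525-105415824: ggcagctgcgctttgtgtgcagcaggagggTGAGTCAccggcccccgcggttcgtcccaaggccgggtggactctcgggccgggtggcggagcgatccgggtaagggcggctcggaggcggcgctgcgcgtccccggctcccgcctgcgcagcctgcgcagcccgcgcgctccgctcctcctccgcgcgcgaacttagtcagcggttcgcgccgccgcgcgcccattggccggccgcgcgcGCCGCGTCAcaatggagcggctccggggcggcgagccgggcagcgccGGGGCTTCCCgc
Lrrc8c promoter, chr5:105519221-105519520: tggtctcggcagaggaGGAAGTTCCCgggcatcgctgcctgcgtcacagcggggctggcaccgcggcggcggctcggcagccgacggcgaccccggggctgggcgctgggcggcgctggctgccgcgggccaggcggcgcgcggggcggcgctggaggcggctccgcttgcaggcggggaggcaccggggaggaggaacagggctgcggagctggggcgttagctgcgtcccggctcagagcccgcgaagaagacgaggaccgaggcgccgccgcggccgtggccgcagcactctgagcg
Lrrc8d promoter, chr5:105699719-105700018: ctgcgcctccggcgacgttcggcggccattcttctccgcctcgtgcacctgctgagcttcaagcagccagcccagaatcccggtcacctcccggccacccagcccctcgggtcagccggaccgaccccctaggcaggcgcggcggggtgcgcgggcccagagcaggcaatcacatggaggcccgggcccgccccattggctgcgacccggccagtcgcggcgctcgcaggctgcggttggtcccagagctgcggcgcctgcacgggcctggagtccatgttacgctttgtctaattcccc
Lrrc8c held 1 match to the NF-kB consensus, GGAAGTTCCC, 234 bases before the start, on the minus strand reading of that motif. Lrrc8b held 1 as well, GGGGCTTCCC from base 39, beside an AP-1 match (TGANTCA) and an antioxidant response core (TGACNNNGC, read on the minus strand). The NF-kB consensus occurred in 8.46% of 32851 mouse promoters of this length, AP-1 in 7.81% and the antioxidant core in 12.39%. Neither of the 2 promoters listed for Lrrc8d held any of the 7, which also included the interferon-stimulated response core, the GAS element (TTCNNNGAA), the cyclic AMP element (TGACGTCA) and the E-box (CACGTG). The Lrrc8a promoter held a cyclic AMP element and an E-box, motifs found in 1.79% and 7.15% of promoters. A match is a description of letters, and so is its absence.

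In the annotation used (GENCODE M21, GRCm38), Lrrc8a spans chr2:30237715-30263790, Lrrc8b chr5:105415775-105490074, Lrrc8c chr5:105519388-105613018, Lrrc8d chr5:105699969-105832436 and Lrrc8e chr8:4226827-4237470, and each is on the plus strand. Their IDs in the files are ENSMUSG00000007476.18, ENSMUSG00000070639.5, ENSMUSG00000054720.12, ENSMUSG00000046079.16 and ENSMUSG00000046589.7. No stretch of 50 bases is shared between transcripts of any 2 subunits, so a read of that length that matches one of them exactly matches no other subunit. Of the 12664 stretches of 50 bases in Lrrc8d transcripts, however, 623 (4.92%) also occur in transcripts of other genes. Among these are Abhd2 (405), Noct (380, on the opposite strand), Kif24 (296) and the antisense gene Lrrc8dos (171, on the opposite strand). In its coding transcript with the longest 3′ UTR, 171 of 3874 (4.41%) do, and the genes that hold those were not listed separately. Over all transcripts, the share was 0.18% for Lrrc8c, 1.84% for Lrrc8e and 66.19% for Lrrc8a, and no stretch of Lrrc8b was shared. Lrrc8a shares 2853 exonic bases, on the same strand, with Gm28035, a readthrough entry that had between 0 and 2 counts. With so few counts there beside 508 to 973 for Lrrc8a, reads in the shared exons were neither counted for both entries nor split evenly. Whether they were set aside or given to Lrrc8a alone is not stated in the sources used here. If they were set aside, Lrrc8a's counts come from 1364 of its 4308 exonic bases. Lrrc8d shares 218 of 12573 exonic bases with its antisense partner Lrrc8dos. Whether strand was used in counting is not stated, so reads there cannot be told apart. Lrrc8dos had between 141 and 203 counts in a library, while Lrrc8d had between 415 and 7210.

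Gene counts summed to between 33937823 and 42074624 per library. Values are CPM, a gene's counts per library total in the usual unit, with totals scaled by TMM, a method that sets them so that most genes are level. Intervals are exact 95% intervals of a ratio between 2 libraries. They cover counting error alone, and no difference between mice or cultures. Reads without molecular identifiers are not independent molecules, so even the counting error may be understated. All 8 macrophage markers examined passed the filter, and their summed level was 14190 CPM in deficient LPS, 22870 in deficient unstimulated, 12510 in wild-type LPS and 22330 in wild-type unstimulated macrophages. That sum does not give the direction of each marker. Adgre1, 1 of the 8, was higher with LPS, at 902 against 387 CPM in deficient and 922 against 429 CPM in wild-type cells. The summed markers of 7 other kinds of cell were at most 13.7 CPM, the value for stromal and endothelial cells, and T and NK cell markers were at 0 in wild-type LPS macrophages. Fewer cells that express a gene and less RNA of it per cell cannot be told apart in such bulk samples. Il6 marked the stimulated libraries, with 374 CPM in deficient LPS, 0.153 in deficient unstimulated, 369 in wild-type LPS and 3.46 in wild-type unstimulated macrophages. The unstimulated libraries differed in it, with 6 counts in deficient and 162 in wild-type macrophages. Their log2 ratio of deficient over wild type was -4.50 (-5.97 to -3.35).

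Lrrc8a, the obligatory subunit, was lower with LPS to the same degree in both genotypes. It had 569 counts (15.2 CPM) in deficient LPS and 822 (20.95 CPM) in deficient unstimulated macrophages, against 508 (15.3 CPM) in wild-type LPS and 973 (20.8 CPM) in wild-type unstimulated macrophages. Both LPS libraries were below both unstimulated ones, and at each state the genotypes were level. The log2 ratio of LPS over unstimulated was -0.46 in deficient macrophages (interval -0.62 to -0.31) and -0.44 in wild-type macrophages (-0.60 to -0.28). The LPS effect in deficient minus that in wild-type cells was -0.02 (-0.24 to 0.20). Deficient over wild type came to 0.01 without LPS (-0.13 to 0.15) and -0.01 with it (-0.19 to 0.16). Both intervals, for the member with a match to the whole miR-7 seed, thus lay within 0.19 of 0.

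Lrrc8b, for which a role in calcium leak from the endoplasmic reticulum has also been described, was lower with LPS too. Its levels were 37.3 CPM in deficient LPS and 66.6 CPM in deficient unstimulated macrophages, against 28.2 CPM in wild-type LPS and 65.2 CPM in wild-type unstimulated macrophages (1398, 2612, 934 and 3049 counts). The unstimulated libraries were level between genotypes, at a log2 ratio of 0.03 (-0.05 to 0.11), whereas the LPS libraries were apart. LPS macrophages had 1.78-fold less Lrrc8b than unstimulated ones in the deficient genotype (1.67 to 1.90) and 2.31-fold less in the wild type (2.15 to 2.49). With LPS, deficient cells stood 0.41 above wild type on the log2 scale (0.29 to 0.53).

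Lrrc8c, the partner linked to cGAMP transport, was higher with LPS in both genotypes and became the subunit with the most counts in both LPS libraries. It had 6732 counts (179.7 CPM) in deficient LPS and 1562 (39.8 CPM) in deficient unstimulated macrophages. Wild-type macrophages had 4883 (147 CPM) with LPS and 2107 (45.04 CPM) without. Both LPS libraries were far above both unstimulated ones. LPS over unstimulated was 4.51-fold in deficient macrophages (4.27 to 4.77) and 3.27-fold in wild-type macrophages (3.11 to 3.44). Deficient cells were slightly lower than wild type without LPS, by a log2 ratio of -0.18 (-0.27 to -0.08), and slightly higher with LPS, at 0.29 (0.23 to 0.34). The difference of the LPS effects was 0.47 (0.36 to 0.57).

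Lrrc8d, the partner that passes taurine and other organic solutes, differed with LPS in opposite directions in the 2 genotypes. It had 5958 counts (159 CPM) in deficient LPS and 415 counts (10.6 CPM) in deficient unstimulated macrophages. In wild-type macrophages it had 542 counts (16.3 CPM) with LPS and 7210 counts (154 CPM) without. Thus 1 library of each genotype was high and 1 low, and the high one was the LPS library in deficient cells and the unstimulated library in wild-type cells. LPS macrophages had 15.04-fold more than unstimulated ones in the deficient genotype (13.6 to 16.7) and 9.43-fold less in the wild type (8.64 to 10.3). Between genotypes, deficient cells had 14.6-fold less than wild type without LPS (13.2 to 16.1) and 9.73-fold more with LPS (8.91 to 10.6). The 2 high libraries were at the same level, with a log2 ratio of deficient LPS over wild-type unstimulated of 0.05 (-0.00 to 0.10). Of the 2 low ones, deficient unstimulated was -0.63 relative to wild-type LPS (-0.82 to -0.44). The difference of the LPS effects was 7.14 on the log2 scale (6.95 to 7.34), the 20th by size of 12730 genes, while Lrrc8c ranked 5222, Lrrc8b 6356 and Lrrc8a 12313.

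**Figure D1:**
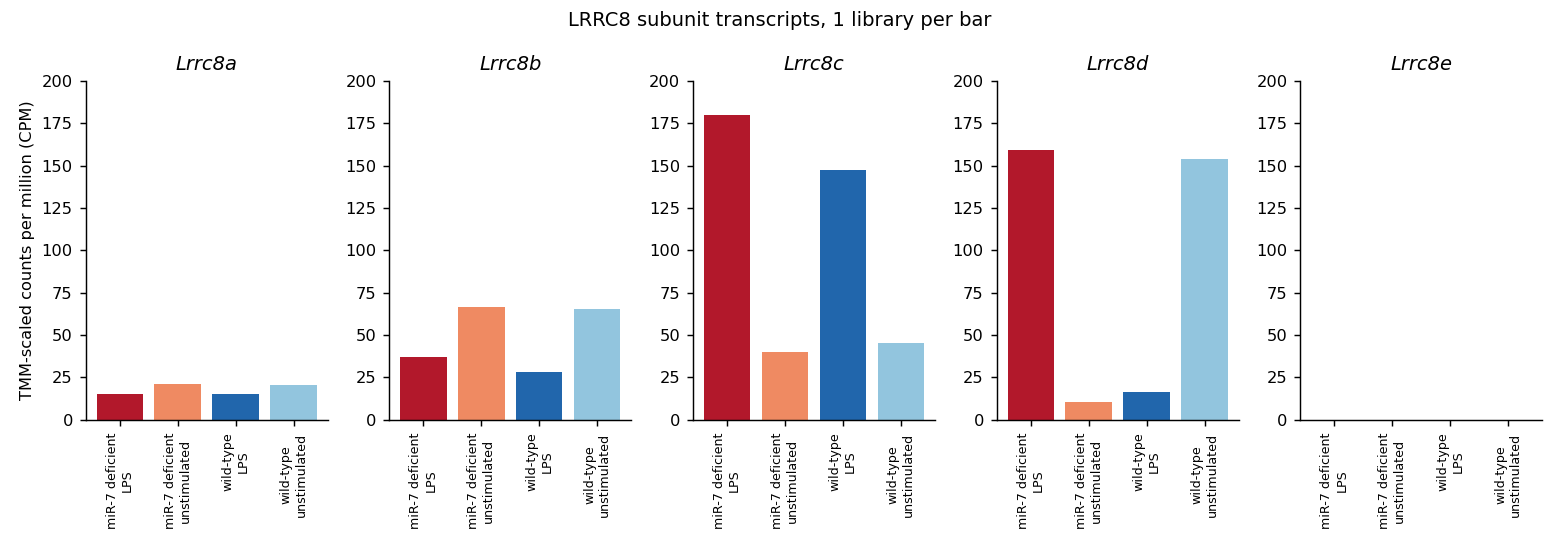
Level of each LRRC8 subunit (CPM after TMM scaling, 1 panel per gene, all on the same vertical axis from 0) in the 4 libraries, 1 bar per library with no error bar because each group is 1 library. Lrrc8a and Lrrc8b are lower and Lrrc8c higher in both LPS libraries, Lrrc8d is high in deficient LPS (159 CPM) and wild-type unstimulated macrophages (154 CPM), and Lrrc8e is at or near 0.

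Lrrc8e was all but undetected. It had 4 counts (0.107 CPM) in deficient LPS macrophages and 0 in the other 3 libraries, where 3 counts, the limit that a count of 0 allows, correspond to 0.0736 to 0.0884 CPM of the unscaled totals. No fold is given for it, and no difference in it was detectable at this depth.

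The members' differences were set beside those of all tested genes. Beyond 2-fold here means that the whole interval lies past it. With LPS in deficient macrophages, 2 of 4 members were beyond 2-fold higher (Lrrc8c and Lrrc8d) and 0 lower, where 12.5% and 11.8% of genes were. In wild-type macrophages 1 was higher (Lrrc8c) and 2 were lower (Lrrc8b and Lrrc8d), beside 14.8% and 13.3% of genes. Between deficient and wild-type cells, Lrrc8d alone of the 4 was beyond 2-fold, lower without LPS, where 1.41% of genes were, and higher with LPS, where 2.58% were. For the opposite directions, 2.82% of genes were higher without LPS and 3.04% lower with it. The interval of its difference of LPS effects lay beyond 2-fold in the direction of 2.26% of genes, while 3.82% lay beyond it in the other direction. Lrrc8d was 1 of 9 genes (0.0707%) beyond 2-fold higher with LPS in deficient and lower in wild-type cells, against 6 (0.0471%) the other way, whereas 10.5% were higher in both and 8.64% lower in both. Since the family was picked for these values, the shares place it among other genes and do not test it.

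**Figure D2:**
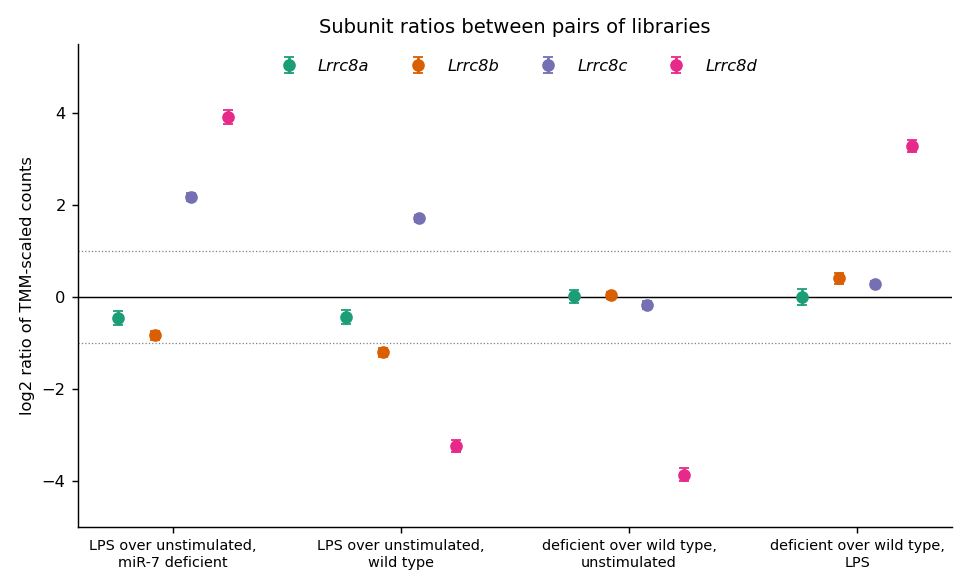
Log2 ratio between pairs of libraries for the 4 subunits that passed the filter, LPS over unstimulated in each genotype and deficient over wild type in each state, with exact 95% counting intervals as bars (most are narrower than the point). Lrrc8d lies at 3.91 and -3.24 for LPS in deficient and wild-type cells, while the other 3 subunits have the same sign in both genotypes.

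A model with an LPS and a genotype term was also fitted over all genes with edgeR, to the same counts by which the family was chosen, so its values for the members are a further description. Its LPS term was -0.45 ± 0.21 for Lrrc8a, -1.02 ± 0.21 for Lrrc8b and 1.94 ± 0.21 for Lrrc8c (log2 ± SE), and 0.33 ± 2.38 for Lrrc8d, for which LPS had no common direction. Its genotype term was 0.22 ± 0.21 for Lrrc8b, 0.06 ± 0.20 for Lrrc8c and -0.28 ± 2.38 for Lrrc8d, and for Lrrc8a it was -0.000647 ± 0.209. The medians over all genes were -0.04 for LPS and 0.02 for genotype. Each SE is the size of the log2 term over the square root of edgeR's F statistic. With 1 residual degree of freedom, edgeR moderates that statistic with values from all genes. The dispersion estimate had 5.18 prior degrees, and those of the test itself were not recorded. For Lrrc8a, Lrrc8b and Lrrc8c the SEs do not follow the differences between the pairs.

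**Figure D3:**
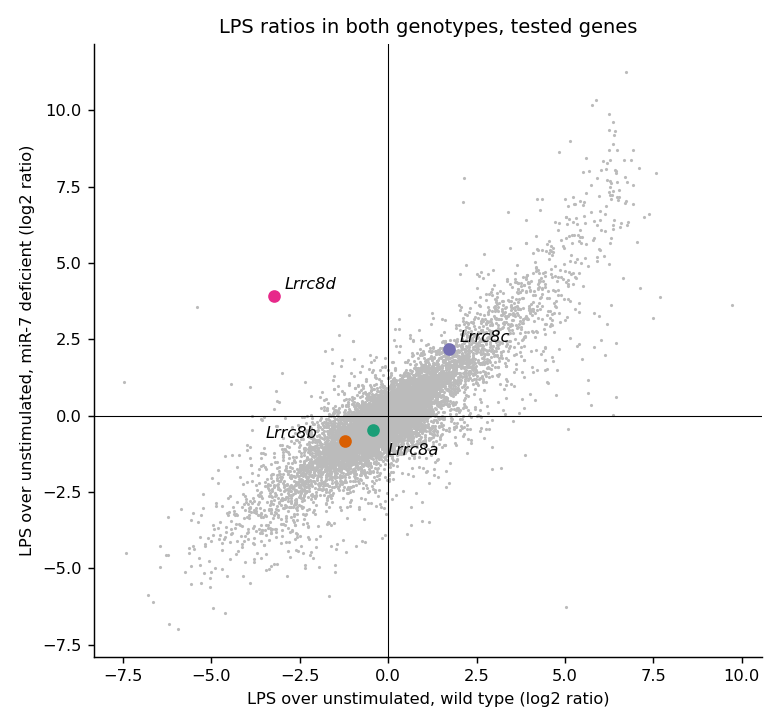
LPS effect in deficient macrophages (vertical) against that in wild-type macrophages (horizontal), log2 ratio of TMM-scaled counts, for the 12489 of 12730 tested genes with a count in all 4 libraries (grey), with the 4 subunits marked. Lrrc8a, Lrrc8b and Lrrc8c lie near the diagonal, and Lrrc8d lies in the upper left, at -3.24 and 3.91.

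The makeup of the family followed. Summed over the 5 genes, the level was 391 CPM in deficient LPS, 138 CPM in deficient unstimulated, 207 CPM in wild-type LPS and 285 CPM in wild-type unstimulated macrophages. Without Lrrc8d the sums were 232, 127, 191 and 131 CPM in the same order, so both LPS libraries were then above both unstimulated ones. Levels of different genes compare per length of transcript, and the shares below are of CPM per kilobase of exon. Lrrc8c held 51.9% of the family in deficient LPS and 25.0% in deficient unstimulated macrophages, against 68.0% in wild-type LPS and 18.0% in wild-type unstimulated macrophages. Lrrc8d held 27.97% and 4.04% in deficient cells with and without LPS, against 4.596% and 37.5% in wild-type cells. Lrrc8b held 12.3% and 47.6% in deficient cells with and without LPS, against 14.8% and 29.7% in wild-type cells. Lrrc8a held 7.80% and 23.4% in deficient cells, against 12.6% and 14.8% in wild-type cells. By all annotated exons, the leading subunit was Lrrc8c in both LPS libraries, Lrrc8b in unstimulated deficient macrophages and Lrrc8d in unstimulated wild-type macrophages. By the longest transcript, Lrrc8d led in deficient LPS macrophages with 44.3% against 41.2% for Lrrc8c. Which subunit led in the unstimulated libraries depends on how reads in Lrrc8a's shared exons were counted. As a share of family counts, Lrrc8d had 40.6% (Wilson 95% interval 39.8 to 41.4) in deficient LPS, 7.67% (6.99 to 8.41) in deficient unstimulated, 7.89% (7.28 to 8.55) in wild-type LPS and 54.1% (53.2 to 54.9) in wild-type unstimulated macrophages. If each subunit was counted from its unshared exonic bases alone, Lrrc8a would hold 20.99% in deficient LPS and 49.0% in deficient unstimulated macrophages. In wild-type macrophages it would hold 31.2% with LPS and 35.2% without. Lrrc8a would then lead in both unstimulated libraries, against 31.6% for Lrrc8b in deficient and 28.8% for Lrrc8d in wild-type macrophages.

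**Figure D4:**
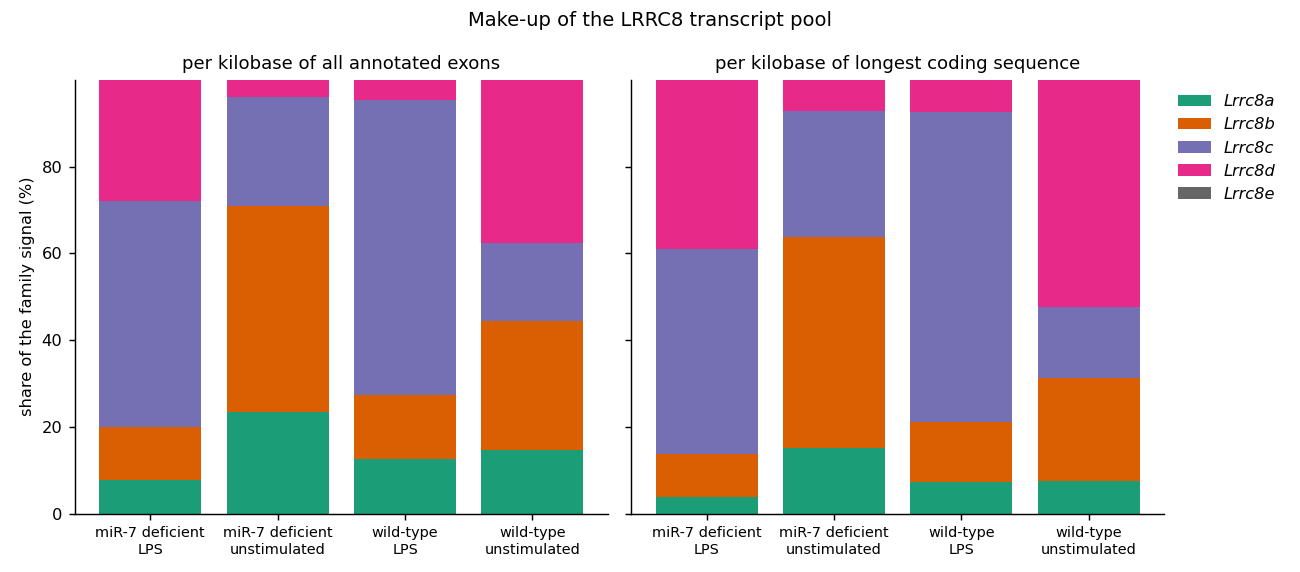
Share of each subunit in the summed LRRC8 level (percent of CPM per kilobase) in each of the 4 libraries, 1 stacked bar per library, per kilobase of all annotated exons on the left and of the longest coding sequence on the right. On the left, Lrrc8c takes 51.9% in deficient LPS and 68.0% in wild-type LPS macrophages, and Lrrc8d takes 27.97% in deficient LPS and 37.5% in wild-type unstimulated macrophages but under 5% in the other 2 libraries.

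The genes around the chromosome 5 cluster moved the same way in both genotypes. Gbp6, an interferon-induced GTPase and the nearest tested protein-coding gene before Lrrc8b, had 530 CPM in deficient LPS, 9.18 CPM in deficient unstimulated, 375 CPM in wild-type LPS and 8.34 CPM in wild-type unstimulated macrophages. It rose with LPS by 5.67 ± 0.24 on the log2 scale (edgeR adjusted p = 0.000173). Zfp326, the nearest after Lrrc8d, had 9.40 CPM in deficient LPS, 18.0 CPM in deficient unstimulated, 7.96 CPM in wild-type LPS and 15.9 CPM in wild-type unstimulated macrophages, and its LPS term was -0.97 ± 0.23 (edgeR adjusted p = 0.0213). Neither neighbour of Lrrc8d, Lrrc8c on one side and Zfp326 on the other, had its pattern of 1 high library per genotype. The neighbours of Lrrc8a (Kyat1 and Phyhd1) and of Lrrc8e (Evi5l and Map2k7) were not called for LPS, with edgeR adjusted p between 0.0630 and 0.185.

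**Figure D5:**
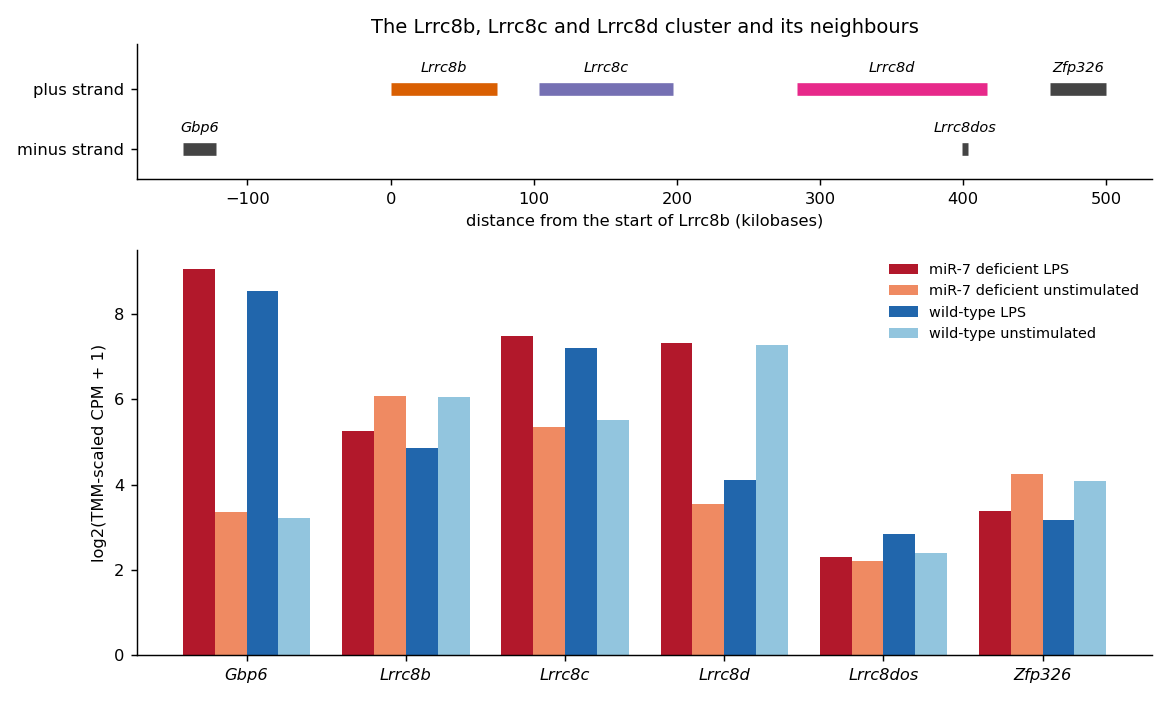
Above, positions and strands of the chromosome 5 cluster with the antisense gene Lrrc8dos and the nearest tested protein-coding neighbours, in kilobases from the start of Lrrc8b. Below, the level of each gene, log2 of CPM + 1, in the 4 libraries: Gbp6 and Lrrc8c are higher and Lrrc8b and Zfp326 lower in both LPS libraries, while Lrrc8d is high in deficient LPS and wild-type unstimulated macrophages.

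The genes with the most similar profile were found by the distance between centred log2 CPM over the 4 libraries, among 7835 named protein-coding genes with a mean of 10 CPM or more. Lrrc8a was nearest to Arsa, Hnrnpl and Ankra2 (distances 0.0235, 0.0292 and 0.0306), and its profile was a common one, with 2335 genes within 0.5. Lrrc8b was nearest to Pigq, Med22 and Scd1 (0.0456, 0.0604 and 0.0678), with 722 genes within 0.5. Lrrc8c was nearest to Zfp324, Axl and Adar (0.0850, 0.0852 and 0.0986), with 166. Lrrc8d had no gene within 0.5. Its nearest were Rnd2 (1.42), Osgin1 (1.81) and Sept2 (1.96). Rnd2 had 52.1 CPM in deficient LPS and 4.46 CPM in deficient unstimulated macrophages, against 2.32 CPM in wild-type LPS and 97.9 CPM in wild-type unstimulated macrophages. Osgin1 had 18.6 CPM in deficient LPS and 4.13 CPM in deficient unstimulated macrophages, against 4.43 CPM in wild-type LPS and 13.4 CPM in wild-type unstimulated macrophages. Sept2 shares 3335 exonic bases with a second entry of the same name, so its counts may be split. With 4 points per gene, these distances describe profiles and carry no test. Of the 15 genes with opposite LPS directions beyond 2-fold, 10 (66.7%) share exonic bases with another gene, as do 5162 (40.5%) of all tested genes, and Lrrc8d is among them through its 218 bases.

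Other genes of cell volume control were listed by their known roles. Of 30 genes listed, 26 were tested, and with LPS 7 rose, 3 fell and 16 were not called by edgeR, against 18% of all genes that rose and 16.3% that fell. At an unadjusted p under 0.05, 44.9% of all genes differed with LPS. The list's median LPS term was 0.14, and that of all genes was -0.04. Scaling by total counts instead, which lowers the median LPS ratio of all genes to -0.43 in deficient and -0.46 in wild-type cells, gave 5 that rose and 9 that fell in this list, and 1550 and 3840 genes in all in place of 2297 and 2075. Stk39, the kinase SPAK, which phosphorylates cation-chloride cotransporters under WNK control, rose by 3.29 ± 0.38 (edgeR adjusted p = 0.00150), with 16.2 CPM in deficient LPS, 2.42 in deficient unstimulated, 16.3 in wild-type LPS and 1.11 in wild-type unstimulated macrophages. Wnk2 had 21.8 and 0.969 CPM in deficient cells with and without LPS and 46.5 and 0.470 CPM in wild-type cells with and without LPS. Nfat5, the transcription factor of the hypertonic response, rose by 0.94, as did Slc6a12, the betaine transporter, by 1.07, and the water and glycerol channel Aqp9, by 2.04. The potassium-chloride cotransporter Slc12a7 fell by 1.98. Slc6a6, which imports the taurine that the channel releases, was not called, at 1038 CPM in deficient LPS, 1198 in deficient unstimulated, 1021 in wild-type LPS and 1282 in wild-type unstimulated macrophages (edgeR adjusted p = 0.344). With total-count scaling it was called lower (edgeR adjusted p = 0.0376). The mechanosensitive channel Piezo1, at 444, 272, 390 and 298 CPM in the same order, was not called either (edgeR adjusted p = 0.0796).

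Among other chloride channels and transporters, 30 entries were found and 19 tested, of which 3 rose and 5 fell with LPS and 11 were not called, beside the 18% and 16.3% of all genes, with a median of -0.14. Total-count scaling gave 3 and 8. Clcn7, the lysosomal chloride-proton exchanger, rose by 1.801, and the intracellular proteins Clic4 and Clic5 rose by 2.41 and 6.59. Clic5 had 179 CPM in deficient LPS and 0.714 CPM in deficient unstimulated macrophages, against 137 CPM in wild-type LPS and 2.99 CPM in wild-type unstimulated macrophages. Tmem206, the proton-activated chloride channel, fell by 1.96, to 26.1 CPM in deficient LPS and 28.3 CPM in wild-type LPS macrophages, against 99.2 CPM in deficient unstimulated and 113 CPM in wild-type unstimulated macrophages. Ttyh2 and Ttyh3 of the tweety family fell by 1.36 and 1.88, and the scramblase Ano6 by 0.67. The proton channel Hvcn1 was between 768 and 1124 CPM and was not called (edgeR adjusted p = 0.370).

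In the cGAMP and STING list, 16 of 19 entries found were tested. Of these, 7 rose and 3 fell with LPS and 6 were not called, beside the 18% and 16.3% of all genes, with a median of 0.26. Total-count scaling gave 6 and 6. Cgas, which makes cGAMP, rose by 0.98, and the kinases Tbk1 and Ikbke rose by 1.24 and 1.28. The nucleases Trex1 and Samhd1 rose by 3.58 and 1.78, and the DNA sensor Ifi204 by 3.98. Trex1 shares 1147 exonic bases with Atrip on the same strand, so its counts may be split. Abcc1, a reported cGAMP exporter, rose by 1.66. Slc19a1, which has been reported to import cyclic dinucleotides, fell by 2.15, and Enpp1, which degrades cGAMP outside cells, fell by 2.76. Slc46a3 fell by 4.71, to 2.54 CPM in deficient LPS and 1.96 CPM in wild-type LPS macrophages, against 49.1 CPM in deficient unstimulated and 70.8 CPM in wild-type unstimulated macrophages. Tmem173, which encodes STING, had 30.4 CPM in deficient LPS, 40.8 in deficient unstimulated, 24.1 in wild-type LPS and 43.8 in wild-type unstimulated macrophages and was not called (edgeR adjusted p = 0.0685).

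Of the other large-pore channels, 15 entries were found and 4 tested. With LPS 3 of these rose and 1 fell, beside the 18% and 16.3% of all genes, with a median of 1.81. Panx1, the pannexin that releases ATP, rose by 1.35, to 73.9 CPM in deficient LPS and 97.1 CPM in wild-type LPS macrophages, against 33.98 CPM in deficient unstimulated and 32.3 CPM in wild-type unstimulated macrophages. Calhm6 rose by 5.53 and the connexin Gja1 by 2.26. Calhm2 fell by 1.32 (edgeR adjusted p = 0.0381), a call that was lost with DESeq2's size factors (edgeR adjusted p = 0.0554) and with LPS as the sole term (edgeR adjusted p = 0.0683).

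All 14 genes of the NLRP3 list were tested. With LPS 6 rose, 4 fell and 4 were not called, beside the 18% that rose and 16.3% that fell of all genes, with a median of 0.53. Nlrp3 rose by 2.56, Casp1 by 2.42, Casp4 by 3.77, Il18 by 2.01, Gsdmd by 1.27 and Il1b by 7.47. The adaptor Pycard fell by 1.08. Txnip, an inhibitor of thioredoxin that has been reported to bind NLRP3, had an LPS term of -2.004 and also fell. The potassium channels Kcnk13 and Kcnk6 fell by 1.89 and 1.34. Kcnk6 is also in the volume list. Nek7, the kinase that binds NLRP3, had the same pattern as Lrrc8d in smaller size, with 175 CPM in deficient LPS and 49.4 CPM in deficient unstimulated macrophages, against 58.0 CPM in wild-type LPS and 144 CPM in wild-type unstimulated macrophages. It is 1 of the 9 genes of that direction and was singled out after its values were seen. The purinergic channel P2rx4 was between 221 and 326 CPM and was not called (edgeR adjusted p = 0.195). No gene of the 5 lists was called for genotype by edgeR, which called 0.385% of all genes higher and 0.165% lower in deficient cells, while 7.6% of genes had an unadjusted p under 0.05. That term combines the libraries with and without LPS, so it can miss a difference that depends on LPS. Single pairs of libraries did differ beyond 2-fold. Without LPS, deficient over wild type was -2.49 on the log2 scale for Il1b, -2.07 for Clic5, -1.88 for Calhm6 and -1.55 for Nek7. With LPS it was 1.55 for Trex1, 1.59 for Nek7, 1.34 for Best1, 1.13 for Clcn5 and -1.32 for Brcc3. Atrip, which shares exonic bases with Trex1, had a ratio of -2.99 in that pair, from 26 counts in deficient and 183 in wild-type cells.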

How the data were processed

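Polyadenylated RNA of 4 macrophage libraries was sequenced on a HiSeq 2000, with base calls by Casava 1.8.2, trimming by Cutadapt and alignment by TopHat 2.0.13 with Bowtie2, per the series design text. The submitters' processing notes name HTSeq and the build mm8. The authors deposited raw counts per gene, 1 table per library, with no normalization. No source used here gives the strand setting or the annotation release. Of 52550 IDs, 52403 matched GENCODE M21 (GRCm38) without their version, and names, exons and coordinates are those of the matching ID. Any shift between builds was not examined.

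The members, gene lists and marker lists were chosen with earlier results of these data known. The filter kept genes that reached a CPM of 1 in 2 libraries or more. TMM factors were between 0.846 and 1.16. Ratios of 2 libraries carry exact Clopper-Pearson intervals, and differences of LPS effects a normal 95% interval after adding 0.5 counts. The model for the gene lists, in edgeR 4.0.16 under R 4.3.3, had a genotype and an LPS term and used the quasi-likelihood test. Benjamini-Hochberg adjustment ran over all 12730 genes, and genes under 0.05 were called. Only 1 degree of freedom remains, the interaction. The scripts were tested on simulated counts. DESeq2 1.42.0, other scalings, filters, fold limits and lengths were alternatives. Named genes were the members, from each list the 2 highest in mean CPM and the 2 with the largest LPS change, the 3 nearest profiles, and the nearest tested neighbours. Other list genes named here were called ones, or were chosen after their values were seen. Total counts per library limit precision as the floor of 3 counts, 0.0713 to 0.0884 CPM, shows.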

Additional observations from a re-analysis of the deposited data

Results flagged for a closer look

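The effect of LPS on Lrrc8d differed in direction between genotypes: it was 15.04-fold higher with LPS in deficient macrophages and 9.43-fold lower in wild-type macrophages, a difference of 7.14 on the log2 scale. Rnd2 and Osgin1, named because their profiles are the nearest to that of Lrrc8d, crossed as well, with differences of 8.93 and 3.77, which that choice fixes and which is no separate evidence. The third nearest, Sept2, had a difference of 3.44, and its LPS ratio in wild-type cells, -0.99 (-1.08 to -0.90), was not beyond 2-fold. Each direction rests on 1 library against 1 library, and the difference was not tested. Il6 was at 374 and 0.153 CPM in deficient cells with and without LPS, and at 369 and 3.46 CPM in wild-type cells, so the LPS labels held for that gene. Il6 cannot show whether genotype labels were exchanged between libraries of the same LPS state, which was not tested. Whether part of the reads of a library came from another sample was not tested either.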

How the results depend on the processing

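No paired analysis was possible because each group holds 1 library. DESeq2's size factors moved no member's ratio out of its interval. Total counts moved 9 of 20 member values and reversed none that was beyond 2-fold, while Lrrc8b came to lie beyond 2-fold lower in deficient cells too: LPS over unstimulated became -0.84 in deficient and -0.88 in wild-type cells for Lrrc8a, -1.21 and -1.65 for Lrrc8b, 1.798 and 1.27 for Lrrc8c, and 3.53 and -3.68 for Lrrc8d, and deficient over wild type with LPS became 0.36 for Lrrc8c.

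Lrrc8d's share (deficient LPS, deficient, wild-type LPS, wild type) was 44.3%, 8.26%, 8.99% and 56.2% by longest transcript, 39.0%, 7.22%, 7.42% and 52.4% by coding length, and 24.3%, 2.73%, 3.68% and 28.8% by unshared exonic bases, the last added after the data were seen.

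Genes beyond the fold limit with LPS in deficient cells numbered 2402 higher and 2531 lower at 1.5-fold, 770 and 531 at 4-fold, and 982 and 951 without genes that share exons. In wild-type cells they numbered 2896 and 2755, 944 and 626, and 1169 and 1065. Lower genes became 2390 in deficient and 2843 in wild-type cells by total counts, and 845 and 985 at a CPM of 10 or more. Deficient over wild type without LPS gave 823 higher and 419 lower at 1.5-fold, 102 and 62 at 4-fold, 160 and 93 at a CPM of 10, and 225 and 115 without shared exons. With LPS it gave 794 and 872, 87 and 106, 139 and 202, and 198 and 238.

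LPS calls by edgeR ranged from 1051 to 1744 higher and from 640 to 1464 lower when 1 library was left out, and total counts gave 3840 lower. Genotype calls were 27 higher with DESeq2's size factors, 31 by total counts, 18 higher and 10 lower without a filter, and 147 and 81 by DESeq2's Wald test. They were 0 and 0 with genotype as the only term (131 and 56 genes at an unadjusted p under 0.05) and from 0 to 0 with any library left out (58 to 107 higher and 30 to 93 lower at that p). In fits with 1 library in an arm, that library is assumed to vary like the others. Piezo1 was called with DESeq2's Wald test (adjusted p = 0.0282).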
